A study of Homo sapiens with 5 samples.

Results

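C/D box small nucleolar RNAs (snoRNAs) are short RNAs that pair with ribosomal or spliceosomal RNA and guide ribose methylation or cleavage of the precursor. In human cells most lie in introns of other genes and are cut out of the spliced intron, so 1 transcript gives a host RNA and 1 or more snoRNAs. Each is bound by the core proteins FBL (the methyltransferase), NOP56, NOP58 and SNU13. Many hosts are genes of ribosomal proteins or translation factors, or noncoding genes whose spliced RNA is short-lived, and such hosts often begin transcription at a pyrimidine tract.

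The genes described here are those for which a probe names exactly 1 symbol made of SNORD and a number, leaving out the SNORD115 and SNORD116 copies. They were 75 of the 18417 genes measured, each with 1 probe, so no probe had to be chosen. For 68 of them the gene that contains them is a known host, and these snoRNAs lie in 37 hosts. Another 5 lie inside a gene that is not a known host (SNORD13P1, SNORD13P2 and SNORD13P3, which are pseudogenes by name, SNORD56B and SNORD96B). SNORD13, made from its own promoter, and SNORD32B lie in no gene. The platform's names were taken as given. The probe of an intronic snoRNA also matches the host's unspliced intron, so processed and unprocessed RNA cannot be told apart.

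The RNA came from RS4;11, a human leukemia line with a rearranged MLL gene, and was measured on 5 whole-transcript arrays. For 3 of the arrays the cells were grown for 20 h with 10 uM SB216763, a compound that blocks GSK-3 kinases, and for the other 2 with its solvent DMSO (control). The arrays' medians were 6.77 to 6.84 on the log2 scale, and arrays of a group correlated with r of 0.992 to 0.996, against 0.989 to 0.991 between groups. Whether each array is a culture of its own is not stated. The p-values therefore describe how far these arrays vary, possibly for technical reasons alone, and the small number of arrays limits the precision. Of 10 measured B cell precursor markers, CD79B, PAX5, IGLL1 and FLT3 were above background on all arrays and VPREB1, CD22, CD24, DNTT and CD34 on none, while all 5 myeloid markers (CD14, CSF1R, MPO, LYZ and ITGAM) were above it on all. A lower level cannot be split into fewer cells and less RNA per cell. All levels and differences below are on the log2 scale, and differences are SB216763 minus control with n = 3 and n = 2 arrays. Adjusted p-values are those of limma with Benjamini-Hochberg adjustment over all genes.

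Most C/D box snoRNAs differed little between the groups. SNORD14C and SNORD14E, copies of the rRNA-processing snoRNA U14 in introns of the chaperone gene HSPA8, fell by more than 2-fold, whereas SNORD33, of the ribosomal protein gene RPL13A, rose 1.49-fold. Limma called 6 members higher and 4 lower, which is 13.3% of them, against 13.1% of all genes tested, so the share called was near the background. Of all genes 7.21% were called higher and 5.92% lower. At an unadjusted p under 0.05 there were 21 members, and 26.5% of all genes. The members' median difference was 0.10, with an interquartile range of -0.03 to 0.25, and that of all genes was 0.003, with a range of -0.12 to 0.13. The difference was above 0 for 53 members, or 70.7%, and for 50.7% of all genes. The groups did not overlap for 26 members, or 34.7%, against 41.4% of all genes, and 67 members differed by less than 0.5 in either direction.

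**Figure D1:**
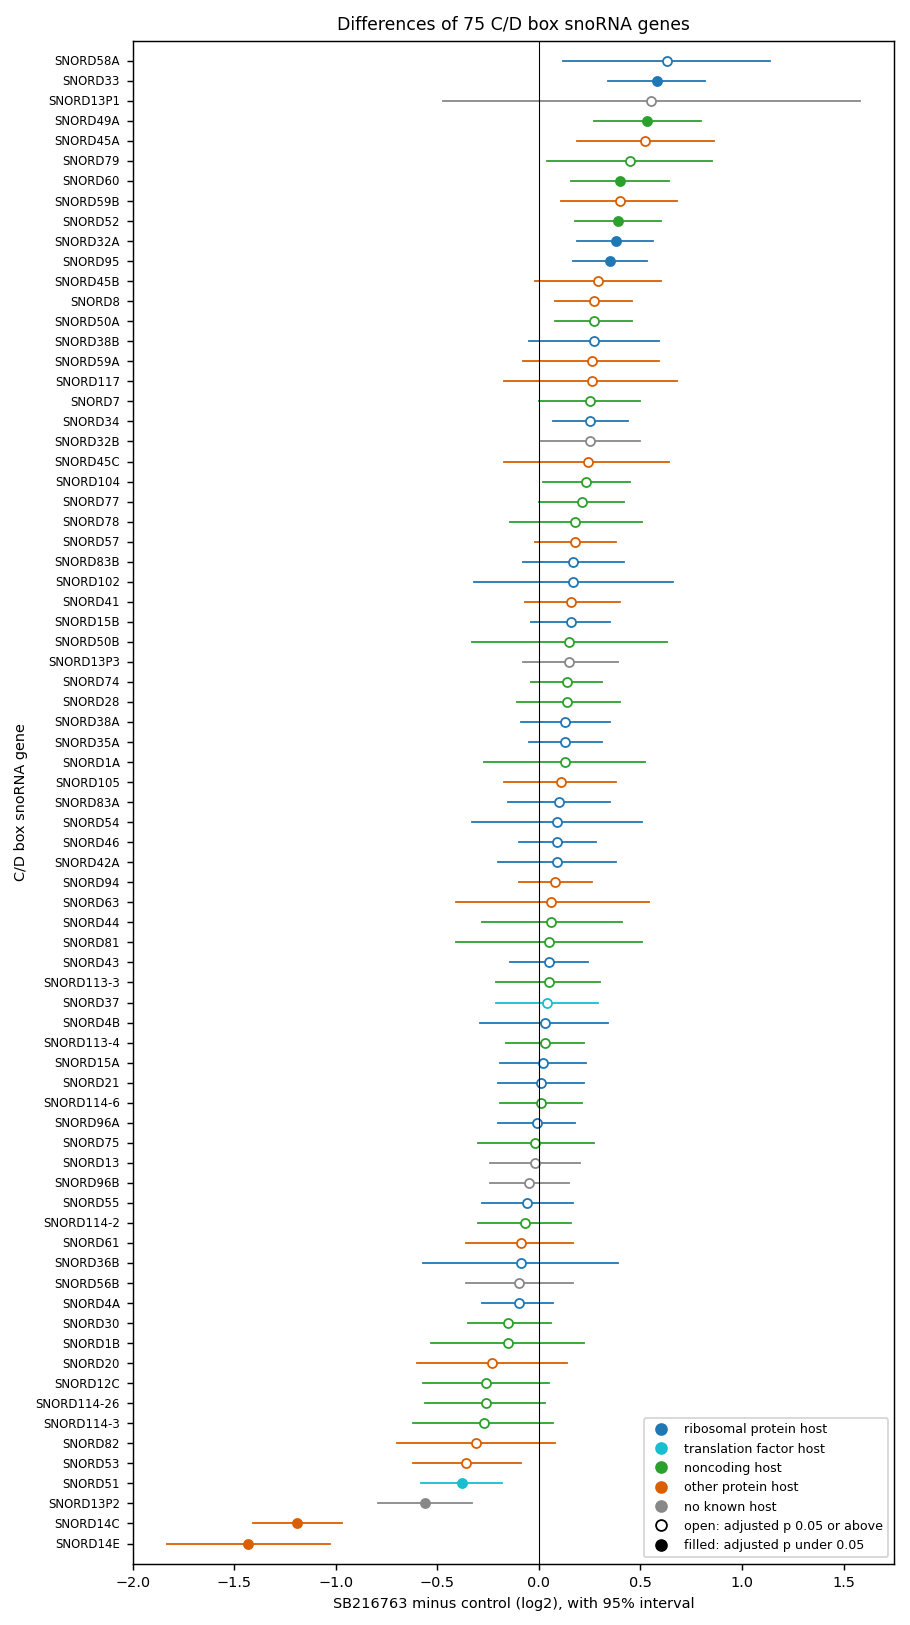
Difference of each of the 75 snoRNA genes (horizontal axis, SB216763 minus control on the log2 scale), 1 row a gene, sorted, with bars for the 95% interval of the moderated fit and colours for the kind of host. SNORD14E (-1.43) and SNORD14C (-1.19) stand apart at the low end, and most of the other intervals include 0.

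No call survived the loss of a control array, but almost no gene of the whole table was called then either. With 1 control array left there is no spread among controls, so the calls of such a fit say nothing about the members. The members' median difference was 0.03 without control replicate 1 and 0.14 without control replicate 2, beside -0.01 and 0.02 for all genes. The SB216763 arrays mattered too. Members called higher numbered 1 without SB216763 replicate 1 and 1 without replicate 3, but 13 without replicate 2. Those called lower numbered 2, 3 and 4 in these cases. The share of all genes called moved likewise, to 5.39%, 8.72% and 15.5% in the same order, against 13.1% with all arrays. SNORD14C, SNORD14E and SNORD33 were called whichever SB216763 array was left out. With each array centred on its median, 4 members were called higher and 4 lower, beside 14.0% of all genes.

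SB216763 replicate 2 was the lowest of the 3 SB216763 arrays for 45 of the 75 members, or 60.0%, against 37.6% of all genes. Control replicate 1 was the lower control array for 57 members, or 76.0%, against 61.9% of all genes. For the 58 members above background on all arrays, the median deviation from the gene's own mean was 0.09, -0.05 and 0.12 on SB216763 replicates 1, 2 and 3. It was -0.12 and -0.04 on control replicates 1 and 2. For the 12071 genes above background on all arrays the same medians were 0.01, 0.00 and 0.01 with SB216763, and -0.03 and 0.02 in control. The part of these array differences in the results for single members was not tested.

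**Figure D2:**
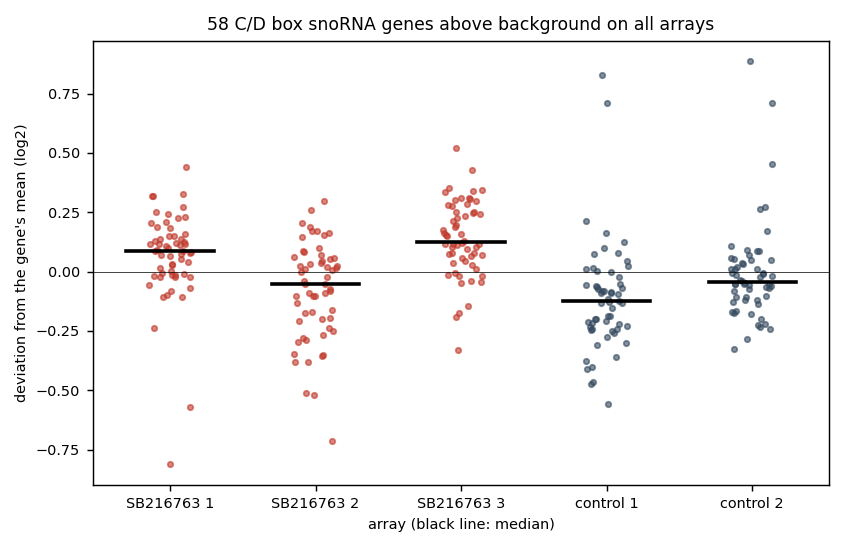
Deviation of each of 58 snoRNA genes above background on all arrays from its own mean over the 5 arrays (vertical axis, log2), 1 point a gene, for each array, with a black line at the median. SB216763 replicates 1 and 3 sit highest, and SB216763 replicate 2 lies near control replicate 2.

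Olfactory receptor genes, silent in most tissues, set the background. It was the level that 95% of 341 such genes did not exceed, 5.98 to 6.19 by array. By it 58 members were above background on all 5 arrays, 3 on some and 14 on none. The mean level ran from 2.99 to 12.70, and since each probe has its own response, the order of levels between members was not read. The 14 dim members include all 6 measured copies from the imprinted gene MEG8 (SNORD113-3, SNORD113-4, SNORD114-2, SNORD114-3, SNORD114-6 and SNORD114-26), which differed by -0.27 to 0.05. Both snoRNAs of NCL (nucleolin), SNORD20 and SNORD82, were below background too, as were SNORD61, SNORD63, SNORD77, SNORD56B, SNORD96B and SNORD13P1. Those above it on some arrays were SNORD51, SNORD1B and SNORD102.

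The U14 copies gave the largest differences. U14 is needed for cleavage of the rRNA precursor on the way to the small subunit RNA and also guides a methylation there. SNORD14E had levels of 6.58, 6.68 and 7.20 with SB216763, against 8.22 and 8.28 in control. SNORD14C had levels of 8.52, 8.57 and 8.76 with SB216763, against 9.80 and 9.80 in control. Every SB216763 array lay more than 1 log2 unit below both control arrays for each gene, and SB216763 replicate 3 was the highest of its group for both. SNORD14E averaged 6.82 ± 0.33 with SB216763 and 8.25 ± 0.04 in control (SD, n = 3 and n = 2). The difference was -1.43 (SE 0.17, adjusted p = 0.00267 by limma), 2.70-fold lower. For SNORD14C it was -1.19 (SE 0.09, adjusted p = 0.000603 by limma), 2.28-fold lower. In 14 other settings the difference stayed between -1.63 and -1.31 for SNORD14E and between -1.27 and -1.14 for SNORD14C. Without a control array, the lowest adjusted p was 0.0934 for SNORD14E and 0.0602 for SNORD14C. Whether the probes of these similar copies share signal was not tested, and the other U14 genes were not analysed here.

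Their host HSPA8, the constitutive cytosolic chaperone, differed less. It had levels of 13.56, 13.48 and 13.54 with SB216763, against 13.75 and 13.99 in control, and the groups did not overlap. The difference was -0.34 (SE 0.09, adjusted p = 0.0534 by limma), which did not pass, with adjusted p from 0.0107 to 0.235 in the other settings, of which 5 called it. The log2 ratio of snoRNA to host within each array removes what both share. For SNORD14E that ratio differed by -1.09 (SE 0.18, adjusted p = 0.00789 by limma), and for SNORD14C by -0.84 (SE 0.11, adjusted p = 0.00352). With a variance prior from the ratios alone the adjusted p was 0.0218 for SNORD14E and 0.0117 for SNORD14C. Both snoRNAs thus fell relative to HSPA8 by more than the spread between arrays, and the groups' ratios did not overlap. The HSPA8 probe is far brighter than those of the snoRNAs, and the highest value on the arrays was 14.84. Whether so bright a probe shows smaller differences was not tested.

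The promoter of HSPA8 is shown because it drives the host and both snoRNAs, the pair that moved furthest. It is read from the RefSeq promoter table of GRCh38.p14, on the minus strand at chr11:123062137-123062386, the 250 bases before the annotated start. Capitals mark the heat shock element cores GAANNTTC and TTCNNGAA, each its own reverse complement, so both strands are covered. There are 4 matches, in 2 pairs that overlap.

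HSPA8 promoter: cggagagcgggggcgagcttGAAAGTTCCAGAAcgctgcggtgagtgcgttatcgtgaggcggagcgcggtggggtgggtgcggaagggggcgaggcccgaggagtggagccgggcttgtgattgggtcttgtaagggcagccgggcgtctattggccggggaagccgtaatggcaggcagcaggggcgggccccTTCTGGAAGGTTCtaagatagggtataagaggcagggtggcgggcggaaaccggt

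Over the full window of 300 bases, 250 before and 50 after the start, 13.7% of 27305 promoters in the table hold at least 1 such match and 0.0293% hold at least 4. The limit of 4 is HSPA8's own count, in overlapping pairs, so the second share is a description and no test. Of 30 hosts with an entry, 6 hold at least 1. A match is a description of the letters and not evidence of binding.

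**Figure D3:**
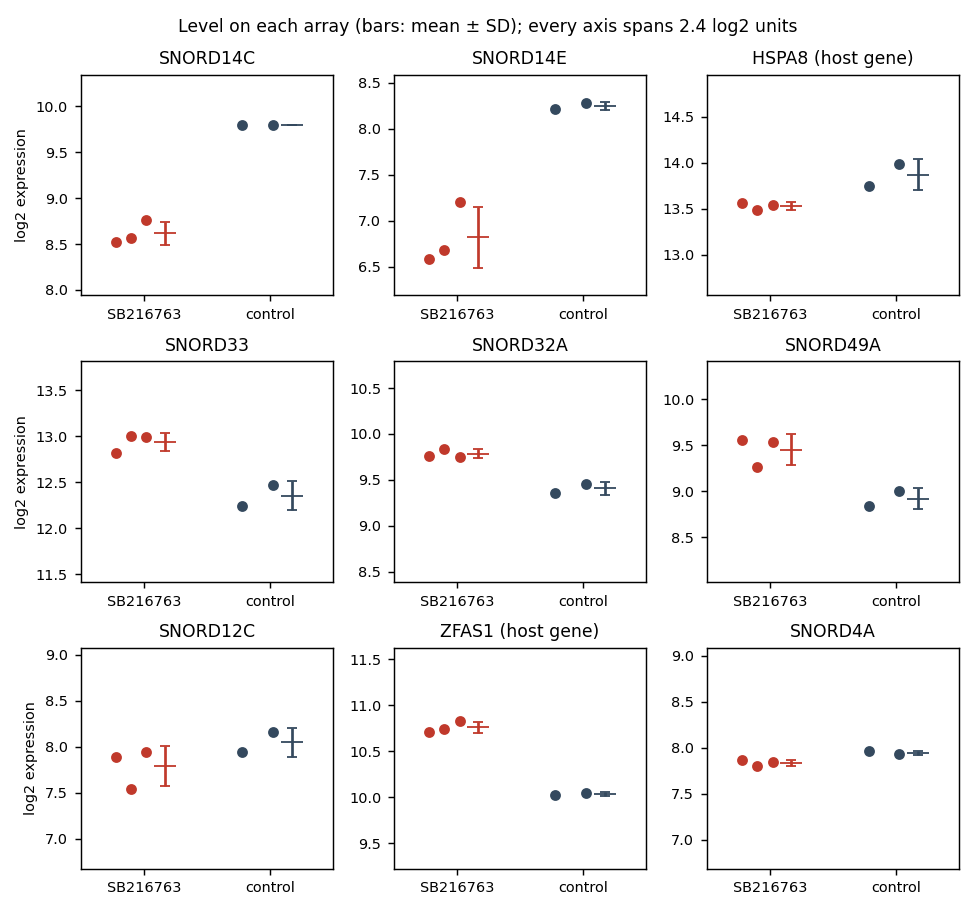
Log2 level of 7 snoRNAs and the hosts HSPA8 and ZFAS1 on each array (points), SB216763 left and control right, with the mean and SD beside them. SNORD14C and SNORD14E lie more than 1 unit lower with SB216763, while HSPA8 differs by -0.34.

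In introns of ribosomal protein genes and RACK1, which encodes a protein of the small ribosomal subunit, lay 23 members. Of these 3 rose, 0 fell and 20 were not called (5 higher and 0 lower at an unadjusted p under 0.05). Among all genes, 7.21% were called higher and 5.92% lower, and 2626 of 18417 were higher and 2254 lower at that unadjusted level. Their median difference was 0.10. SNORD33 had levels of 12.82, 13.00 and 12.99 with SB216763, against 12.24 and 12.47 in control. Its difference was 0.58 (SE 0.10, adjusted p = 0.0107 by limma). SNORD33 shares RPL13A with SNORD32A, SNORD34 and SNORD35A, and snoRNAs of this gene have been linked in other cells to death under lipid overload. SNORD32A had levels of 9.76, 9.84 and 9.75 with SB216763, against 9.36 and 9.46 in control, and rose by 0.38 (SE 0.08, adjusted p = 0.0218). SNORD34 and SNORD35A, named because they share the host and after their values were seen, differed by 0.25 (adjusted p = 0.0825) and 0.13 (adjusted p = 0.335). All 4 had every SB216763 array above both control arrays. In 1 direction or the other the groups did not overlap for 41.4% of all genes, and the 4 share 1 host, so they are not independent. SNORD95, of RACK1, had levels of 11.15, 11.19 and 11.14 with SB216763, against 10.78 and 10.84 in control, and rose by 0.35 (SE 0.08, adjusted p = 0.0228). Its neighbour in the same host, SNORD96A, differed by -0.01 (95% interval -0.20 to 0.18). The calls of SNORD32A and SNORD95 were lost with the replicate number as a block, and without SB216763 replicate 1 or 3.

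RPL13A had no probe of its own. One probe names it together with the pseudogenes RPL13AP5, RPL13AP3 and RPL13AP20. That probe had levels of 13.97, 13.94 and 13.99 with SB216763, against 13.58 and 13.75 in control, a difference of 0.30 (SE 0.08, adjusted p = 0.105 over all probes). It was not set against the snoRNAs.

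SNORD58A, of RPL17, was singled out after its value was seen. It had levels of 8.06, 7.41 and 8.14 with SB216763, against 7.06 and 7.42 in control. Its difference of 0.63 (SE 0.22) was the largest positive one of all members, but the groups overlapped and the adjusted p was 0.107 by limma. RPL17 itself, by the probe that names it alone, differed by 0.43 (SE 0.12, adjusted p = 0.0504). Another 2 probes, which are brighter, name it together with RPL17-C18orf32. They differed by 0.60 (adjusted p = 0.0473 by limma over all probes) and 0.54 (adjusted p = 0.0652), and were not set against SNORD58A.

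RPL23A, of the large ribosomal subunit, rose while none of its 3 snoRNAs was called. By its brighter probe of 2 it had levels of 12.39, 12.31 and 12.35 with SB216763, against 11.86 and 11.86 in control, and rose by 0.49 (SE 0.08, adjusted p = 0.00705 by limma). SNORD4A had levels of 7.87, 7.80 and 7.84 with SB216763, against 7.96 and 7.93 in control, and differed by -0.10 (95% interval -0.28 to 0.07). The SB216763 arrays were all below the control arrays for SNORD4A, but by little. SNORD4B differed by 0.03 (95% interval -0.29 to 0.34) and SNORD42A by 0.09 (95% interval -0.20 to 0.38). The ratio of SNORD4A to RPL23A was lower with SB216763, with a difference of -0.59 (SE 0.07, adjusted p = 0.00305). For SNORD4B it differed by -0.46 (adjusted p = 0.0537) and for SNORD42A by -0.39 (adjusted p = 0.0691), which did not pass. The 3 snoRNAs of RPL3, SNORD43, SNORD83A and SNORD83B, differed by 0.05 to 0.17 beside a host difference of 0.15, and the intervals of their ratios lay between -0.31 and 0.29. With the prior from the ratios alone they lay between -0.36 and 0.36.

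The 2 members in translation factor genes were SNORD51 and SNORD37. SNORD51, of the elongation factor gene EEF1B2, had levels of 6.18, 6.07 and 6.17 with SB216763, against 6.45 and 6.58 in control. It fell by 0.38 (SE 0.08, adjusted p = 0.0264 by limma), and on SB216763 replicate 2 it was not above background. EEF1B2 differed by -0.18 (adjusted p = 0.350), and the ratio by -0.20 (95% interval -0.52 to 0.13). The ratio's interval was -0.59 to 0.20 with the prior from the ratios alone. SNORD37, of EEF2, differed by 0.04 (adjusted p = 0.870), while EEF2 rose by 0.39 (SE 0.08, adjusted p = 0.0211). The call of SNORD51 was lost with the replicate block and without SB216763 replicate 1 or 3.

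Noncoding genes hosted 25 members, 6 of them in MEG8. Of the other 19, 3 rose, 0 fell and 16 were not called (7 higher and 0 lower at an unadjusted p under 0.05). The shares of all genes were 7.21% called higher and 5.92% lower. At that unadjusted level 2626 of all 18417 genes were higher and 2254 lower. Their median difference was 0.15. SNORD49A, of SNHG29, had levels of 9.56, 9.26 and 9.54 with SB216763, against 8.84 and 9.00 in control, and rose by 0.53 (SE 0.11, adjusted p = 0.0219 by limma). SNHG29 itself rose by 0.39 (SE 0.07, adjusted p = 0.0152), and the ratio differed by 0.14 (95% interval -0.13 to 0.42). For this ratio the prior from the ratios alone gave an interval of -0.19 to 0.48. SNORD52, of SNHG32, had levels of 9.90, 9.70 and 9.90 with SB216763, against 9.43 and 9.45 in control, and rose by 0.39 (SE 0.09, adjusted p = 0.0299). SNORD60, of SNHG19, had levels of 8.84, 8.66 and 8.93 with SB216763, against 8.34 and 8.48 in control, and rose by 0.40 (SE 0.10, adjusted p = 0.0444). In each of these 3 SB216763 replicate 2 was the lowest of its group and still above both control arrays. SNORD52 and SNORD60 were not called with each array centred on its median, with the replicate block or without SB216763 replicate 1 or 3. SNORD49A was not called without SB216763 replicate 1 or 3.

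SNORD12C and its host, the noncoding gene ZFAS1, differed in opposite directions, of which the rise of ZFAS1 was called. ZFAS1 had levels of 10.71, 10.74 and 10.83 with SB216763, against 10.02 and 10.05 in control, and rose by 0.73 (SE 0.08, adjusted p = 0.00196 by limma). SNORD12C had levels of 7.89, 7.54 and 7.94 with SB216763, against 7.94 and 8.16 in control, and differed by -0.26 (adjusted p = 0.277). Its ratio to ZFAS1 was lower with SB216763, with a difference of -0.99 (SE 0.13, adjusted p = 0.00341), and the ratios of the groups did not overlap. Both the size of this difference, -1.08 to -0.86 over 14 other settings, and its direction held, while the call was lost without moderation and without control replicate 1 or 2.

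GAS5, a noncoding gene linked to growth arrest, hosted 7 members, named because they share the host and after their values were seen. SNORD44, SNORD74, SNORD75, SNORD77, SNORD78, SNORD79 and SNORD81 differed by -0.02 to 0.45, with a median of 0.14, 0 called by limma and 1 at an unadjusted p under 0.05. That one was SNORD79, with levels of 8.12, 7.66 and 8.14 with SB216763, against 7.32 and 7.73 in control (adjusted p = 0.147). SB216763 replicate 2 fell within the control range. SNORD50A and SNORD50B, of SNHG5, a locus deleted in some tumours, differed by 0.27 (adjusted p = 0.0678) and 0.15 (adjusted p = 0.726). SNORD28 and SNORD30, of SNHG1, differed by 0.14 (adjusted p = 0.485) and -0.15 (adjusted p = 0.355).

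**Figure D4:**
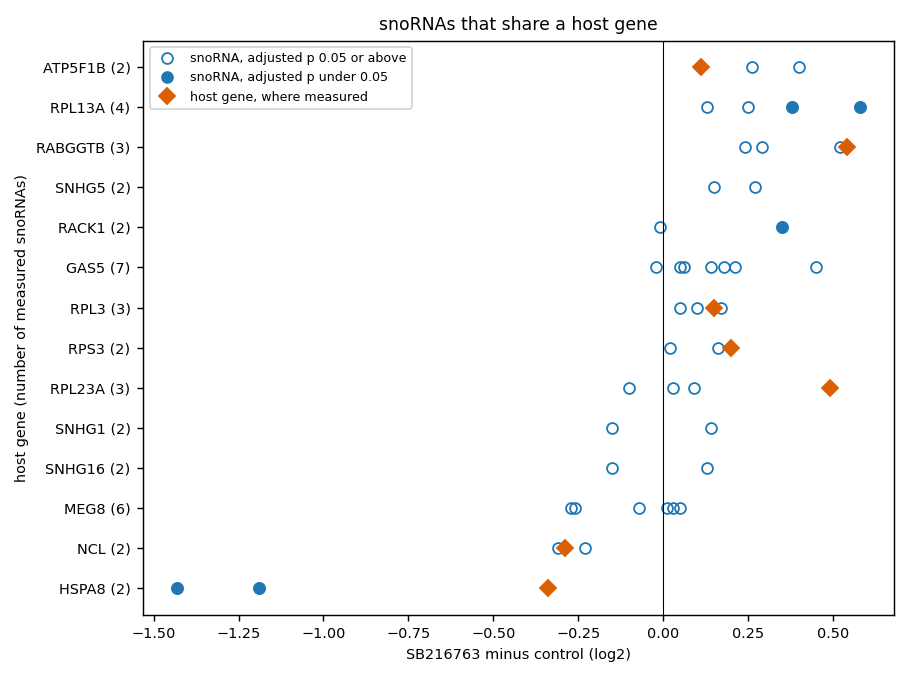
Difference (horizontal axis, SB216763 minus control, log2) of 42 snoRNAs in 14 hosts with more than 1 measured snoRNA, 1 row a host, with a diamond for the host gene where it had a probe of its own. The spread within a host was 0.08 to 0.46, and the diamonds of RPL23A and HSPA8 lie apart from their snoRNAs.

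Among the 18 members in other protein genes, 2 fell, the U14 copies, and 0 rose, with 3 higher and 3 lower at an unadjusted p under 0.05. For all genes the shares called were 5.92% lower and 7.21% higher, with 2626 of 18417 higher and 2254 lower at that unadjusted level. SNORD45A, SNORD45B and SNORD45C share RABGGTB, which encodes a subunit of the enzyme that attaches lipid to Rab proteins. RABGGTB rose by 0.54 (SE 0.10, adjusted p = 0.0140 by limma). SNORD45A had levels of 11.21, 10.91 and 11.39 with SB216763, against 10.55 and 10.74 in control. Its groups did not overlap, and it just missed the threshold, at 0.52 (SE 0.14, adjusted p = 0.0508). The ratio of SNORD45A to RABGGTB differed by -0.02 (95% interval -0.23 to 0.19), and the groups' ratios overlapped. Its interval was -0.28 to 0.25 with the prior from the ratios alone. SNORD45B and SNORD45C differed by 0.29 and 0.24, with ratio differences of -0.26 (adjusted p = 0.117) and -0.31 (adjusted p = 0.146).

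SNORD53 did not pass, and neither did its host. It had levels of 8.08, 7.80 and 8.13 with SB216763, against 8.31 and 8.42 in control, a difference of -0.36 (adjusted p = 0.0843). WDR43, the host, which encodes a ribosome assembly factor, differed by -0.37 (adjusted p = 0.0508), and the ratio by 0.01 (95% interval -0.17 to 0.19). With the prior from the ratios alone that interval was -0.22 to 0.24. SNORD59B, of the ATP synthase gene ATP5F1B, had levels of 9.11, 8.80 and 9.08 with SB216763, against 8.48 and 8.72 in control, a difference of 0.40 (adjusted p = 0.0770). ATP5F1B differed by 0.11 (adjusted p = 0.453), and the ratio by 0.29 (adjusted p = 0.119). These 2 snoRNAs were chosen for mention after their values were seen. SNORD7, SNORD8 and SNORD94, which guide methylation of the spliceosomal U6 RNA and not of rRNA, differed by 0.25 (adjusted p = 0.181), 0.27 (adjusted p = 0.0728) and 0.08 (adjusted p = 0.601), and were likewise named after their values were seen.

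SNORD13, the guide of an acetylation on the small subunit rRNA, has its own promoter and no host. It had levels of 10.41, 10.51 and 10.46 with SB216763, against 10.59 and 10.36 in control, a difference of -0.02 (95% interval -0.24 to 0.20), and the SB216763 arrays lay between the 2 control arrays. The pseudogene SNORD13P2 lies inside FOXK1, a gene for a forkhead factor. It had levels of 7.28, 7.23 and 7.37 with SB216763, against 7.73 and 7.97 in control, and fell by 0.56 (SE 0.10, adjusted p = 0.0112 by limma), as did FOXK1 by 0.38 (SE 0.08, adjusted p = 0.0199). The ratio differed by -0.17 (95% interval -0.44 to 0.09, or -0.50 to 0.16 with the prior from the ratios alone). Whether SNORD13P2 runs in the direction of FOXK1 was not determined here, and its call was lost without SB216763 replicate 1.

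Set against their hosts as a whole, 30 members had a known host with a probe of its own, in 20 hosts. The ratio of snoRNA to host was lower for 4 (SNORD14E, SNORD12C, SNORD14C and SNORD4A) and higher for 0 by limma. An unadjusted p under 0.05 was reached by 9 ratios that were lower and 2 that were higher, but this fit, whose variance prior comes mostly from single genes, gave unchanged ratios such a p too often in simulated data. With a variance prior from the ratios alone, an alternative chosen after seeing the data, 7 lower and 0 higher reached it, and the same 4 were called. In the same fit 13.1% of all genes and ratios were called. Of 5 further pairs known by position alone, SNORD56B to SIPA1L1 was lower (-0.38, adjusted p = 0.0162), but SNORD56B was above background on no array. The median ratio difference was -0.07. In the 14 pairs with a ribosomal protein or translation factor host, 12 ratios were below 0, with a median of -0.19. Pairs with 1 host share that host's values, so they are not independent. A ratio also sets 2 probes of unlike level and response against each other, and what this adds was not tested. Of the 26 pairs not called, 14 had a 95% interval within 0.5 of 0 on both sides. With the prior from the ratios alone the intervals were wider, and 13 lay within that limit. No ratio was called without control replicate 1 or 2, but each of these fits leaves 1 control array, and almost no gene was called in them.

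**Figure D5:**
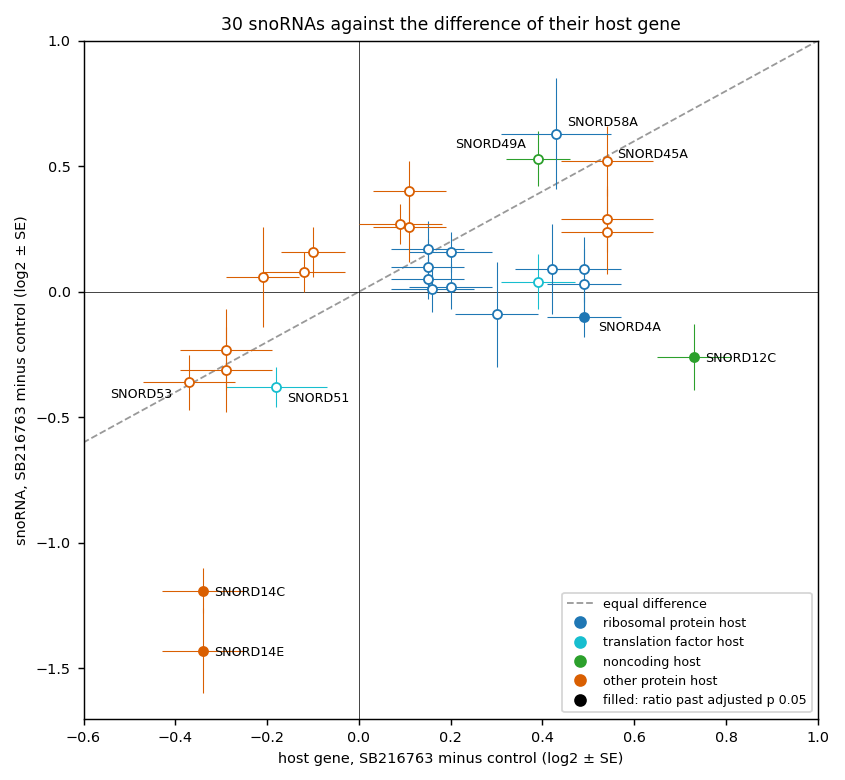
Difference of 30 snoRNAs (vertical axis) against the difference of their host gene (horizontal axis), both given as SB216763 minus control (log2) with bars of 1 SE. The dashed line marks equal differences. SNORD14E, SNORD14C, SNORD12C and SNORD4A (filled) lie below the line, and SNORD53 and SNORD45A lie close to it.

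Of the 20 hosts themselves, 6 rose (ZFAS1, RABGGTB, RPL23A, RPS20, EEF2 and SNHG29), 0 fell and 14 were not called. At an unadjusted p under 0.05, 9 hosts were higher and 4 lower, against 2626 and 2254 of all 18417 genes. By the same fit 7.21% of all genes were called higher and 5.92% lower. The hosts' median difference was 0.16. With each array centred on its median 6 rose and 2 fell, beside 14.0% of all genes called in either direction. After quantile normalization 7 rose and 4 fell, beside 15.6% of all genes called. RPS20, of the small ribosomal subunit, rose by 0.42 (SE 0.08, adjusted p = 0.0132 by limma), while its snoRNA SNORD54 differed by 0.09 (adjusted p = 0.829). No host was called without control replicate 1 or 2, but each of these fits leaves 1 control array, and almost no gene was called in them. Without SB216763 replicate 1 limma called 2 hosts, beside 5.39% of all genes.

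The starts of hosts with a called member or ratio are shown to compare how transcription begins. Of 9 such known hosts, 8 have an entry in the promoter table (all but RPL23A). In each, 30 bases before and 30 from the RefSeq start are given (GRCh38.p14), with capitals for the unbroken run of C and T that begins with a C at the start. On the minus strand lie HSPA8 at chr11:123062107-123062166, RACK1 at chr5:181243877-181243936 and SNHG19 at chr16:2155329-2155388. On the plus strand lie EEF1B2 at chr2:206159579-206159638, SNHG29 at chr17:16438957-16439016, RPL13A at chr19:49487578-49487637, SNHG32 at chr6:31834886-31834945 and ZFAS1 at chr20:49278612-49278671.

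HSPA8 start: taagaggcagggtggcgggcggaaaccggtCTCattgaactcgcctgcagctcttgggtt
EEF1B2 start: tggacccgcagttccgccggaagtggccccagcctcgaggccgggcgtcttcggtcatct
SNHG29 start: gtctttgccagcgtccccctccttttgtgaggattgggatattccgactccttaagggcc
RPL13A start: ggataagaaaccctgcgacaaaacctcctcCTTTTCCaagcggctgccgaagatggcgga
RACK1 start: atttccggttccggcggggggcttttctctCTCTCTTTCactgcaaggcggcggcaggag
SNHG32 start: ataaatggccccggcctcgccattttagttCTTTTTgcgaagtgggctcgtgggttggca
SNHG19 start: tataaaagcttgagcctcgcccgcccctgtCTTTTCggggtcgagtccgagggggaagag
ZFAS1 start: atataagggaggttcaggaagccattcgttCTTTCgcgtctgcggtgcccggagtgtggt

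RPL13A, RACK1, SNHG32, SNHG19 and ZFAS1, 5 of the 8, begin with C followed by at least 4 bases that are each C or T, and the 3 others (HSPA8, EEF1B2 and SNHG29) do not. Of the hosts, 30 have an entry among these promoters, and 11 begin so, or 36.7%, against 4.04% of 27305 promoters. By kind these were 5 of 7 ribosomal protein hosts, 4 of 9 noncoding hosts, 1 of 2 translation factor hosts and 1 of 12 other hosts. The annotated start can be off by some bases, so a host without the run may still use one.

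The proteins that build and process these particles were measured beside them. Of the C/D box core, FBL had levels of 11.44, 11.41 and 11.47 with SB216763, against 11.45 and 11.71 in control, and differed by -0.14 (SE 0.09, adjusted p = 0.413 by limma). NOP58 differed by -0.27 (SE 0.12, adjusted p = 0.205), and NOP56 and SNU13 were not analysed here. Of 15 measured factors of assembly and transport, 5 fell, 0 rose (0 higher at an unadjusted p under 0.05) and 10 were not called. Beside this list and the next ones, 5.92% of all genes were called lower and 7.21% higher. Their median difference was -0.23. Those 5 include some members of the HSP90-dependent assembly pathway. At an unadjusted p under 0.05, 8 of the 15 were lower, against 2254 of all 18417 genes. Among the 10 not called, TGS1 differed by -0.33 (adjusted p = 0.0661 by limma), NUFIP1 by -0.27 (adjusted p = 0.136), COIL by -0.21 (adjusted p = 0.147) and XPO1 by -0.23 (adjusted p = 0.238). Their groups did not overlap, which held for 41.4% of all genes. Others not called differed less, with HSP90AB1 at 0.01 (adjusted p = 0.947 by limma) and RPAP3 at -0.14 (adjusted p = 0.675). ZNHIT3, ZNHIT6 and NOPCHAP1 differed by 0.06, -0.08 and 0.13, and were not called. PIH1D1, of the R2TP adaptor, fell by 0.82 (SE 0.08, adjusted p = 0.00129), and the helicase-like proteins RUVBL1 and RUVBL2 fell by 0.62 (SE 0.10) and 0.47 (SE 0.08). NOLC1, a nucleolar chaperone of snoRNA particles, fell by 0.47 (SE 0.09), and HSP90AA1, named after its value was seen, by 0.43 (SE 0.09).

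Of 14 measured factors of excision and trimming, C1D, a cofactor of the nuclear exosome, fell by 0.52 (SE 0.11, adjusted p = 0.0196 by limma) and 13 did not pass, among them DBR1, which opens the lariat of the intron. Of 11 measured factors of nonsense-mediated decay, which degrades the spliced RNA of many noncoding hosts, EIF4A3 fell by 0.31 (SE 0.08, adjusted p = 0.0458) and 10 did not pass. Of 11 regulators of mRNAs with a pyrimidine start, EIF4EBP1, the repressor of cap-dependent translation, fell by 0.56 (SE 0.09), RPS6KB1 fell by 0.38 (SE 0.10), TIA1 rose by 0.41 (SE 0.10) and 8 did not pass. Of 26 factors of RNA polymerases I and III, 4 rose and 2 fell. TAF1D, of the polymerase I promoter factor, rose by 0.62 (SE 0.10), POLR1D, a subunit of both polymerases, by 0.59 (SE 0.09) and POLR3GL, of polymerase III, by 0.41 (SE 0.09), and POLR1G, of polymerase I, fell by 0.47 (SE 0.10).

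These list calls also rested on single arrays. Leaving out control replicate 1 left 1 gene of all 18417 called by limma, and leaving out control replicate 2 left 0, so no list call held. Assembly factors called lower numbered 2 without SB216763 replicate 1, where C1D no longer passed, and EIF4A3 was lost whichever array was left out. Without SB216763 replicate 1 the share of all genes called was 5.39%, against 13.1% with all arrays. EIF4A3 was also lost after quantile normalization and with the replicate block, and TIA1 with each array centred on its median.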

How the data were processed

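Total RNA of 5 RS4;11 samples was labelled for the Affymetrix whole-transcript array, and 33297 probes were read on each. The deposited values are log2 expression, made with Affymetrix Expression Console per the submitters' processing notes. How probes were corrected for background and summarised is not given in the sources. Of these probes 19460 name 1 gene, 1754 several and 12083 none. Genes with 1 name were kept, each by its brightest probe (mean of the 5 arrays), which left 18417 genes.

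From these values limma 3.58.1 in R 4.3.3 fitted SB216763 minus control without covariates (two-sided, moderated variance, Benjamini-Hochberg over all genes, threshold 0.05). Within-array differences of snoRNA and host were fitted in the same table of 18452 rows. Hosts were found by position in RefSeq GRCh38.p14 and set against a table of known hosts. The test of the same strand that had been planned was not applied, since the RefSeq gene table gives the snoRNAs no strand. Named are members and ratios past the threshold, members of measured hosts with at least 3 members, U14 and SNORD13, measured hosts, and up to 4 genes of each list with the smallest p. Other names were added after their values were seen. The members and lists were chosen with earlier results of these data known. The fit was tested on simulated data, in which unadjusted p-values of unchanged ratios were too small, so those of ratios are read with the prior from the ratios alone beside them. Alternatives were a filter on dim genes, other normalizations, probe choices, variance models, weighted arrays, a block for the replicate number and leaving out each array. Probes naming a snoRNA with other genes (32) were left out of the members. Results for 1 host with several snoRNAs are not reported here.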

Additional observations from a re-analysis of the deposited data

How the results depend on the processing

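Settings moved the number of calls more than the size of differences, and no reported difference changed direction while called. The members' median difference stayed between 0.03 and 0.15 when 1 array was left out. In that case members called higher numbered 0 to 13 and lower 0 to 4, hosts called higher 0 to 7 and lower 0, and ratios called higher 0 to 1 and lower 0 to 6. Without control replicate 1 limma called 1 gene of all, and without control replicate 2 it called 0. With array weights 19 members were called higher, 4 hosts lower, 2 ratios higher and 8 lower. With the filter on dim genes 11 members were called higher, 2 hosts lower and 7 ratios lower. After quantile normalization 10 members were called higher, 4 hosts lower and 1 ratio higher, and with each array centred on its median 2 hosts were called lower. With trend and robust settings 10 members were called higher and 3 hosts lower. With every probe tested singly 1 member was called higher. Without moderation limma's linear model called 0 members higher and 0 lower (11 and 5 at an unadjusted p under 0.05), 3 hosts higher and 1 ratio lower. In that setting 1.36% of all genes were called. The cause of these changes was not tested.

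The replicate numbers of SB216763 and control arrays are shared, but deviations of same-numbered arrays correlated at 0.0033 and -0.0464, so the numbers are not known to pair the samples. With the replicate block 2 members were called higher, 1 host lower and 7 ratios lower, beside 9.94% of all genes called. Probes near background and the 2 control arrays limit what can be seen.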

Other observations

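Other small RNAs of the same families were measured beside the C/D box snoRNAs. Of 16 scaRNAs, which guide modification of spliceosomal RNA in Cajal bodies, 3 rose, 0 fell and 13 were not called. At an unadjusted p under 0.05, 7 were higher and 1 lower, against 2626 and 2254 of all 18417 genes. Beside these and the groups below, 7.21% of all genes were called higher and 5.92% lower. The median difference of the 16 scaRNAs was 0.20. SCARNA17 had levels of 10.94, 10.98 and 10.97 with SB216763, against 10.20 and 10.33 in control, and rose by 0.70 (SE 0.08, adjusted p = 0.00223 by limma). SCARNA7 rose by 0.47 (SE 0.11, adjusted p = 0.0267) and SCARNA12 by 0.41 (SE 0.10, adjusted p = 0.0361). Of 61 H/ACA snoRNAs, which guide pseudouridylation, SNORA24 and SNORA65 each rose by 0.43, SNORA75 fell by 0.48, SNORA14B fell by 0.39 and 57 were not called. The median difference of the 61 was 0.02. Of 7 factors of the H/ACA particle, the pseudouridine synthase DKC1 fell by 0.60 (SE 0.09, adjusted p = 0.00587), NHP2 by 0.56 (SE 0.08) and the assembly factor SHQ1 by 0.49 (SE 0.09), and 4 did not pass. Without a control array none of these was called by limma, but almost no gene at all was called then. The share of all genes called was 5.39%, 15.5% and 8.72% without SB216763 replicate 1, 2 and 3, against 13.1% with all arrays. The scaRNAs called higher numbered 1 without SB216763 replicate 1 or 3. H/ACA particle factors called lower numbered 2 without SB216763 replicate 1. H/ACA snoRNAs called higher numbered 0 without SB216763 replicate 1 or 2 and 1 without replicate 3, and those called lower 0, 2 and 3.

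Probes that name several genes were kept out of the members. Of probes with a snoRNA of U3, the abundant processing snoRNA, 5 hold identical values and name 5 SNORD3 copies. Their level was 10.92, 11.13 and 10.74 with SB216763, against 10.84 on both control arrays, a difference of 0.09 (SE 0.13, adjusted p = 0.766 by limma over all probes). The 2 probes naming SNHG32, host of SNORD52, with SVIL hold identical values. Their level was 10.71, 10.70 and 10.77 with SB216763, against 9.68 and 9.63 in control, and rose by 1.07 (SE 0.07, adjusted p = 0.00716 by limma over all probes). The probe naming SNORD64 and PWAR5 differed by 0.84 (SE 0.21, adjusted p = 0.0828).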
